A study of Homo sapiens with 8 samples.

Results

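The ZNF genes are the human genes whose symbol is ZNF followed by digits and at most 1 letter, and 245 of them were among the 7504 genes for which alternative poly(A) sites were listed in this series. The members were picked by symbol, with earlier results of these data known. The data came from mRNA 3′-end sequencing of 8 samples in 4 groups of 2 replicates, all of human breast cancer cells of the MDA-MB-231 line. MDA-MB-231 cells are labelled as poorly metastatic, and MDA-LM2 cells are a derivative of them selected for metastasis to the lung. The groups named sgControl and sgHNRNPC were made from MDA-MB-231 cells that carry the CRISPR interference machinery and received, by lentiviral transduction and drug selection, either a non-targeting guide RNA or one against HNRNPC. Both groups therefore share the interference machinery and the selection, which the MDA-MB-231 and MDA-LM2 samples are not described as having. The study's methods describe its sequencing experiments as biological duplicates, the labels do not say whether the replicates were separate cultures, and each line or guide stands for its condition alone.

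One table set MDA-LM2 against MDA-MB-231 cells and is called the MDA-LM2 table here, and the other set sgHNRNPC against sgControl cells and is called the sgHNRNPC table. Each table lists pairs made of a proximal and a distal poly(A) site of 1 gene. A gene is listed only with at least 2 sites. The values in the tables are the outcome of the authors' own comparison and were not used, and no abundance of a site in a single sample was among the data analysed. Depth per sample and the spread between replicates are therefore unknown. What follows describes which ZNF sites each table lists and what lies at them. It does not describe how their use changed, and no difference was tested.

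Most ZNF proteins carry runs of C2H2 zinc fingers, small folds held by a zinc ion, each of which reads a few bases of DNA. Many also carry a KRAB box, which recruits the corepressor TRIM28 to silence transposable elements, and a large share of the genes lie in clusters on chromosome 19 that arose by repeated duplication. The 3′ end of an mRNA is made by cleavage at a poly(A) site, usually a short way downstream of the signal AAUAAA or a variant of it, so a gene with several sites makes transcripts with different 3′ UTRs or different last exons. HNRNPC is a nuclear protein that binds runs of U in RNA.

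The ends of ZNF131, a BTB domain zinc finger protein, are shown first because they include ends with and without the signal, on both sides of the canonical stop codon. Each is the last 30 nt of an annotated transcript in GRCh38 (GENCODE release 44), written 5′ to 3′ on the sense strand as DNA, with the poly(A) signal in capitals. From proximal to distal they lie on the plus strand at chr5:43161744-43161773, chr5:43174686-43174715, chr5:43175806-43175835 and chr5:43176218-43176247. The most proximal belongs to a protein-coding transcript upstream of the stop codon of the canonical transcript and is tagged in the annotation as unfinished at its 3′ end. The next belong to transcripts annotated as targets of nonsense-mediated decay, and the most distal is the end of a protein-coding transcript with a 3′ UTR of 1114 nt.
ZNF131 ENST00000515326.5: gtgtgaaatatgcAATAAAcgatatcttcg
ZNF131 ENST00000507218.5: tgggaaggtgcatgtgctaccattgcttca
ZNF131 ENST00000502623.1: ttgtaaggagcaatgtagatgatgctataa
ZNF131 ENST00000509634.5: acttggaaAATAAAatataacaaacccata

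ZNF330, a nucleolar protein, and ZNF598, a ubiquitin ligase that senses collided ribosomes, are shown because in both the signal stands at the most distal of their placed ends alone. The ends of ZNF330 lie on the plus strand at chr4:141232560-141232589, chr4:141234067-141234096 and chr4:141234668-141234697. Those of ZNF598 lie on the minus strand at chr16:1998153-1998182 and chr16:1997654-1997683, and both belong to transcripts with a retained intron.
ZNF330 ENST00000507532.5: gtttaagcaagaaaaaggaaaacagcctcc
ZNF330 ENST00000506302.1: aaagtaccttagccacttagccttgtgcag
ZNF330 ENST00000262990.9: tctttgAATAAAtctattatttcacttaaa
ZNF598 ENST00000567008.1: tcctctccgggctgccaggcagccaggtaa
ZNF598 ENST00000562988.5: tcaAATAAAtttattttgcaataccacgca

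The MDA-LM2 table held 189 ZNF genes and the sgHNRNPC table held 215, with 159 in both. The shared genes were 84.1% of the ZNF genes of the MDA-LM2 table and 74.0% of those of the sgHNRNPC table. For the 7259 genes with other symbols, called other genes below, the same shares were 89.4% and 86.2%. For the zinc finger genes among these with other symbol roots (ZFP, ZBTB, ZSCAN, ZKSCAN and ZIM) they were 84.8% (28 of 33) and 73.7% (28 of 38), close to those of the ZNF genes. A single table listed the remaining ZNF genes, 30 of them the MDA-LM2 table and 56 the sgHNRNPC table. Most of these had the fewest sites a listed gene can have, since 26 of the 30 and 39 of the 56 were listed with 2 sites (86.7% and 69.6%, the latter with a 95% Wilson interval of 56.7 to 80.1). Among other genes of a single table the shares with 2 sites were 87.1% (586 of 673) and 86.4% (784 of 907, interval 84.1 to 88.5). Of the zinc finger genes with other symbol roots, 5 of 5 and 8 of 10 (interval 49.0 to 94.3) had 2 sites. Whether these shares differ was not tested.

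Most of the surplus in the sgHNRNPC table lay on chromosome 19, which carried 121 of the 245 ZNF genes. There the MDA-LM2 table listed 86 genes and the sgHNRNPC table listed 108, which is 25.6% more, with 13 genes in the MDA-LM2 table alone and 35 in the sgHNRNPC table alone. ZNF genes on other chromosomes went from 103 to 107, 3.88% more, and genes with other symbols from 6352 to 6586, 3.68% more. Zinc finger genes with other symbol roots went from 33 to 38, 15.2% more, beside 13.8% more for all ZNF genes. The tables come from different libraries of unknown depth, and the part of depth in these counts was not tested.

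Set against the annotation, 184 of the 508 protein-coding ZNF genes were listed in the MDA-LM2 table, a share of 36.2% (95% Wilson interval 32.2 to 40.5). In the sgHNRNPC table it was 209, a share of 41.1% (36.9 to 45.5). These counts leave out ZNF225 and ZNF254, which that table lists under other symbols, and ZNF720, a member that GENCODE names KRBOX5. Protein-coding genes that are not ZNF genes were listed at 31.6% and 32.7%. On chromosome 19, 83 of 246 protein-coding ZNF genes (33.7%, 28.1 to 39.9) were in the MDA-LM2 table while 105 (42.7%, 36.7 to 48.9) were in the sgHNRNPC table. Elsewhere the shares were 38.5% (32.9 to 44.6) and 39.7% (34.0 to 45.7), and all these intervals overlap. The zinc finger genes with other symbol roots were listed at shares close to those of the ZNF genes, 36.7% and 42.2% (33 and 38 of 90). The solute carrier genes, a large family of membrane transporters, were listed at 25.4% and 27.8%. All intervals given here cover counting error only and treat genes, sites, ends or pairs as independent. The sites of one gene nonetheless share reads, and its pairs can share ends.

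ZNF genes had mostly 2 or 3 listed sites. The 511 sites of the MDA-LM2 table made 548 pairs, with a median of 2 sites per gene, and 106 of 189 genes (56.1%, interval 49.0 to 63.0) had exactly 2. The 620 sites of the sgHNRNPC table made 745 pairs, with a median of 3, and 103 of 215 genes (47.9%, 41.3 to 54.6) had exactly 2. Among genes with other symbols 46.8% and 44.9% had 2 sites. At least 4 sites were listed for 15.9% of the ZNF genes of the MDA-LM2 table and 20.5% of those of the sgHNRNPC table, beside 28.5% and 30.6% of the other genes. The mean was 2.70 sites per ZNF gene against 3.07 in the MDA-LM2 table, and 2.88 against 3.18 in the sgHNRNPC table.

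**Figure D1:**
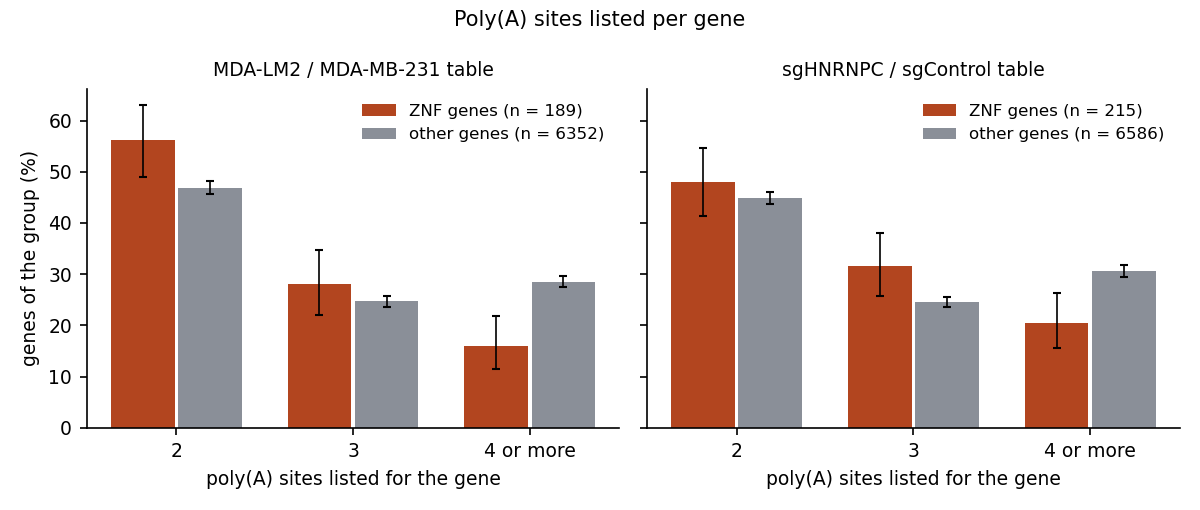
Share of genes (y axis, percent) by the number of poly(A) sites listed for the gene (x axis), for ZNF genes and other genes in each table. Bars are shares and error bars are 95% Wilson intervals over genes. The bar for 2 sites is higher for ZNF genes than for other genes in both panels (56.1% beside 46.8%, and 47.9% beside 44.9%), and the bar for 4 or more sites is lower.

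Nearly as many ZNF sites were named by a genomic position as by a transcript, with positions making up 230 of the 511 sites of the MDA-LM2 table and 48.9% of those of the sgHNRNPC table. The shares among other genes were 45.4% and 48.7%. Both kinds of site occurred in 137 of the 189 ZNF genes of the first table and in 160 of the 215 of the second. Genomic positions did not match GRCh38, since 24 of the 350 ZNF positions (6.86%) lay within 5000 nt of their gene there. The tables do not name their build. The submitters' notes name hg38, which is the same assembly as GRCh38, so the build of these positions is unresolved. They were used for distances inside a gene and not for placement.

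The median distance between neighboring genomic positions was longer in ZNF genes than in other genes in both tables. In the MDA-LM2 table it was 1272 nt over 88 neighboring pairs (quartiles 760 and 2472 nt), beside 873 nt (490 and 1859 nt) for other genes. In the sgHNRNPC table it was 1110 nt over 134 pairs (602 and 2095 nt), beside 778 nt (477 and 1561 nt). In the zinc finger genes with other symbol roots the medians were 1398 nt over 31 pairs and 830 nt over 38 pairs, above and below those of the ZNF genes. Almost no neighbors lay within 398 nt of each other in any gene (none in ZNF genes, and 0.266% and 0.157% in other genes), so the listed spacings have a lower limit near this length. Neighbors within 1000 nt made up 40.9% and 45.5% of the ZNF pairs and 55.8% and 59.7% of the others.

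**Figure D2:**
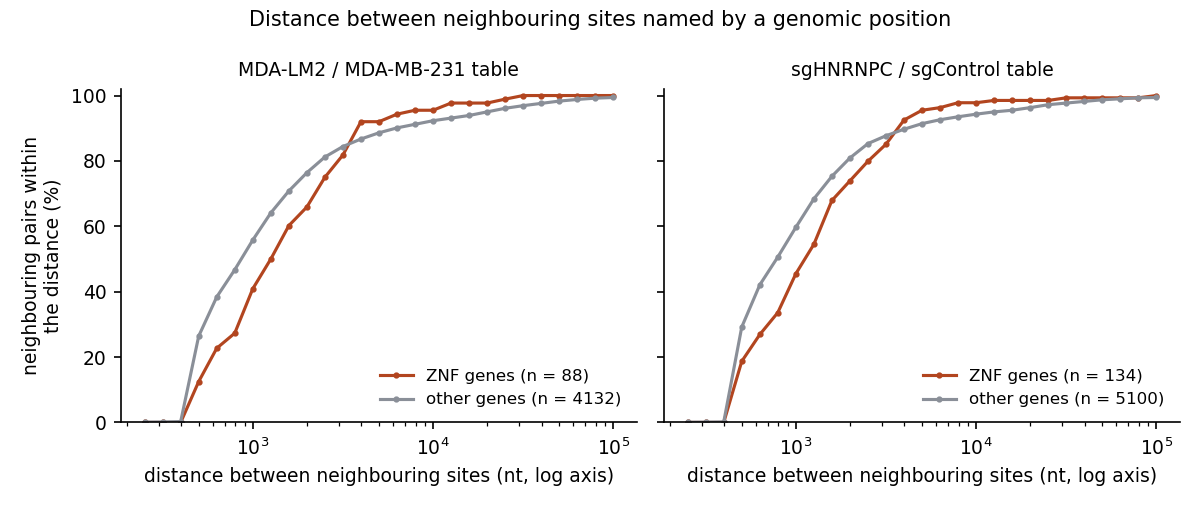
Cumulative share of neighboring genomic positions of a gene (y axis, percent) that lie within a given distance (x axis, nucleotides, log scale), for ZNF genes and other genes in each table. The ZNF curve runs to the right of the other up to 3162 nt in both panels, with 40.9% beside 55.8% of neighbors within 1000 nt in the MDA-LM2 table. At 3981 nt it lies above the other curve in both panels.

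Of the 726 ZNF sites in either table, 405 were in both, 106 in the MDA-LM2 table alone and 215 in the sgHNRNPC table alone. The shared sites were 79.3% of the ZNF sites of the MDA-LM2 table and 65.3% of those of the sgHNRNPC table, beside 84.7% and 78.9% for other genes. Within the 159 ZNF genes that both tables list, 405 of 531 sites were shared (76.3%, interval 72.5 to 79.7), beside 80.5% for other genes. In these genes 84.1% of the transcript ends (222 of 264) and 68.5% of the genomic positions (183 of 267) were shared, and among other genes the shares were 84.3% and 76.7%. Exactly the same sites were listed in both tables for 84 of the 159 genes (52.8%), more sites in the sgHNRNPC table for 45 and more in the MDA-LM2 table for 17. For other genes these counts were 3025 of 5679 (53.3%), 1434 and 859, so the shares with exactly the same sites were close.

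The ZNF gene with the most sites was ZNF207, a protein that binds spindle microtubules and the checkpoint protein BUB3 in mitosis. The MDA-LM2 table listed 10 of its sites and the sgHNRNPC table listed 12, with 9 in both, and no other ZNF gene reached as many in either. ZNF148, a factor that binds GC-rich promoters, followed with 8 and 7 sites, and all 7 of the second set were in the first. ZNF347 had 6 sites in each table, of which 5 were shared.

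ZNF141 showed the widest gap between the tables among the 10 genes with the most sites, with 2 sites in the MDA-LM2 table, 6 in the sgHNRNPC table and 1 in both. ZNF678 went from 4 to 6, ZNF100 from 3 to 5, and the pseudogene ZNF271P from 3 to 6. ZNF398 and ZNF562 went from 4 to 6 each. ZNF292 ran the other way, with 6 sites in the MDA-LM2 table against 4 in the sgHNRNPC table. The number of sites listed is not a level of use, and the part of library depth in it was not tested.

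Among genes in the MDA-LM2 table alone the most sites were in ZNF121, ZNF316, ZNF43 and ZNF76, with 3 each, and the other 26 such genes, among them ZNF138, had 2. Among those in the sgHNRNPC table alone they were in ZNF546 and ZNF654, with 4 each, and 15 more had 3, of which ZNF236, ZNF350 and ZNF382 are named as the first by symbol. ZNF121 and ZNF43, and ZNF546, ZNF350 and ZNF382, lie on chromosome 19.

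**Figure D3:**
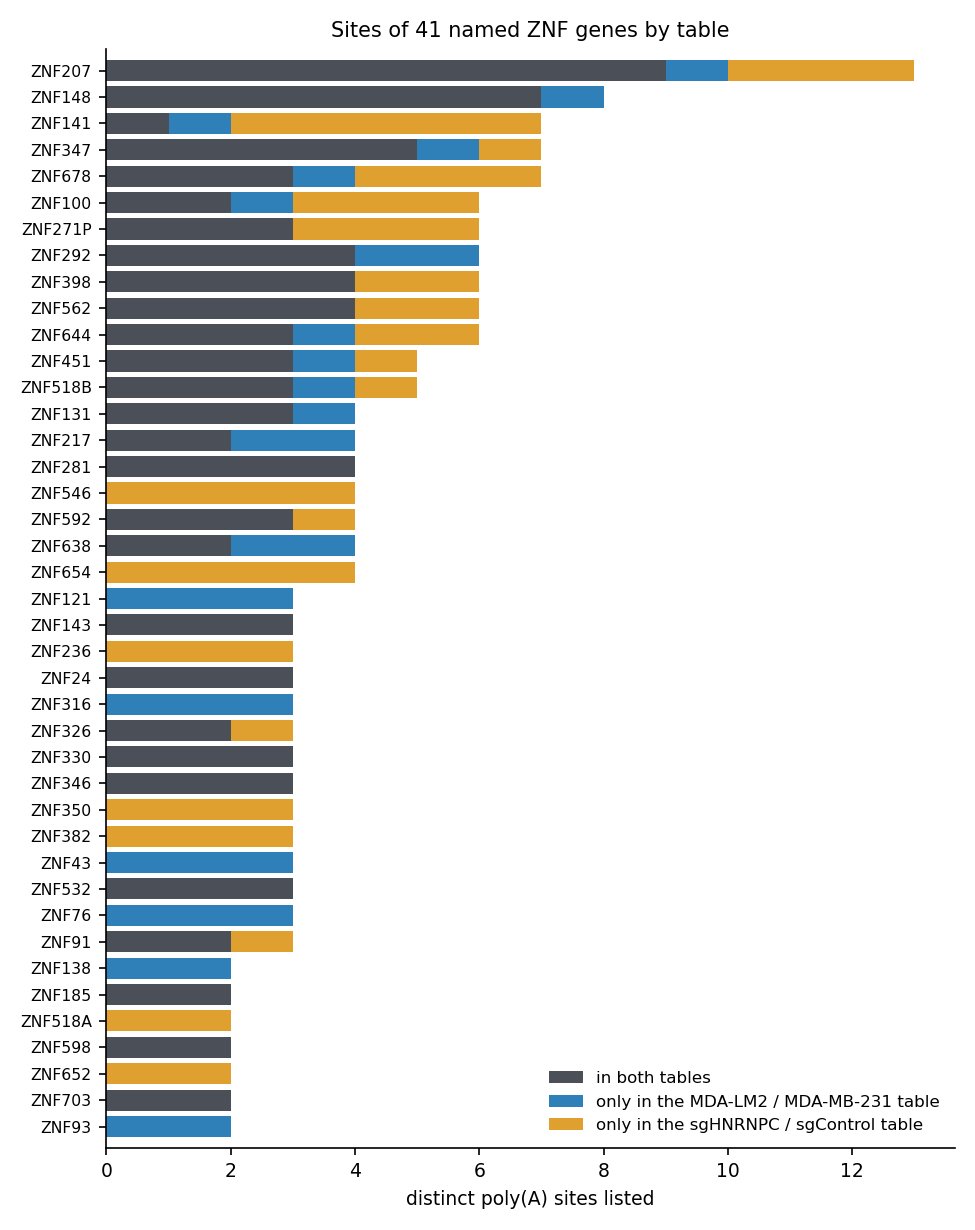
Distinct poly(A) sites listed (x axis, count) for 41 named ZNF genes (y axis), split by color into sites in both tables, in the MDA-LM2 table alone and in the sgHNRNPC table alone. ZNF207 has the longest bar, with 13 sites, and 9 of them are in both tables. ZNF141 has 5 of its 7 sites in the sgHNRNPC table alone.

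Of 32 ZNF genes grouped by what their proteins are known to do, 23 were listed in either table, beside 239 of the 508 protein-coding ZNF genes of the annotation (42.7 to 51.4%, 95% Wilson interval). The groups were chosen with earlier results of these data known, so nothing is read from this difference. Among regulators of transcription 8 of 10 were listed, 7 in the MDA-LM2 table against 8 in the sgHNRNPC table. ZNF143, which activates small nuclear RNA genes, ZNF24, a repressor, and ZNF281, a factor linked to the epithelial-mesenchymal transition, had the same sites in both tables, namely 3, 3 and 4. ZNF703, which is amplified in luminal breast tumors, had 2 sites in both. ZNF217, an oncogene amplified in breast cancer, had 4 sites in the MDA-LM2 table and 2 of these in the sgHNRNPC table. ZNF652, a repressor, was in the sgHNRNPC table alone with 2 sites, and ZNF384 and ZNF750 were in neither.

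Among silencers of repeats and chromatin regulators 8 of 11 were listed, 7 in each table. ZNF91, which silences SVA retrotransposons, had 2 sites in the MDA-LM2 table against 3 in the sgHNRNPC table. Its relative ZNF93, which silences LINE elements, was in the MDA-LM2 table alone with 2 sites. ZNF518A was in the sgHNRNPC table alone with 2, whereas ZNF518B had 4 sites in each table. ZNF638, which recruits silencing to retroviral DNA that has not integrated, had 4 sites in the MDA-LM2 table and 2 of these in the sgHNRNPC table. ZNF644, a partner of histone methyltransferases, had 4 and 5 sites with 3 shared, ZNF592 had 3 and 4, and ZNF532 had the same 3 in both.

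Among proteins of RNA, the ribosome and mitosis 5 of 8 were listed, all of them in both tables. ZNF598 had the same 2 sites in both tables, whose ends are printed above, and ZNF330 and ZNF346, a binder of double-stranded RNA, had the same 3. ZNF326, which acts in splicing, had 2 and 3 sites. ZNF622, ZNF593 and ZNF706 were not listed. Of the proteins with other domains, ZNF185, an actin-associated LIM protein, had the same 2 sites in both tables, ZNF451, a SUMO ligase, had 4 in each with 3 shared, and ZNF746 was not listed.

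Of the 376 ZNF transcript ends, 343 (91.2%) could be placed on GRCh38 by transcript identifier and version. The hexamer AATAAA or ATTAAA, on the sense strand within the last 40 nt, was present at 184 of these 343 ends (53.6%, interval 48.4 to 58.9), beside 47.5% of 11335 placed ends of other genes. AATAAA was found at 41.4% of ZNF ends and ATTAAA without it at 12.2%, and the median signal began 24 nt before the end. An absent hexamer says only that these letters are not in that window. The most distal placed end of ZNF143, for instance, has neither hexamer.

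The share of ends with the signal differed by where the end lay in the gene. The canonical 3′ UTR held 243 of the ZNF ends (70.8%), and 67.1% of these had the signal, beside 67.6% for other genes. Upstream of the canonical stop codon lay 82 ZNF ends (23.9%), beside 29.9% of other ends, and 12 of the 82 (14.6%, interval 8.57 to 23.9) had the signal, beside 5.88%. Of the same 82 ends, 45 (54.9%) belonged to transcripts tagged as unfinished at the 3′ end, which were all the tagged ZNF ends. Such an end is where the evidence for a transcript model stopped, and its place need not be a cleavage site. Among tagged ZNF ends 15.6% had the signal and among untagged ones 59.4%. The remaining ends lay beyond the canonical end (11) or in genes with no canonical stop codon (7).

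By transcript class 77.8% of the placed ZNF ends were protein-coding, beside 64.4% of other ends. Retained introns made up 7.29% beside 12.1%, and targets of nonsense-mediated decay 24 of 343 beside 9.18%. The 3′ UTR of protein-coding ZNF transcripts with a finished end had a median of 1872 nt (quartiles 774 and 3305 nt, 222 ends), beside 1658 nt (702 and 3160 nt) for other genes.

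A run of at least 5 U in the last 100 nt, the kind of sequence HNRNPC binds, was present at 97 of 343 ZNF ends (28.3%, interval 23.8 to 33.3), beside 27.1% of other ends. On chromosome 19 the share was 24.0% (40 of 167) and elsewhere 32.4% (57 of 176). Among ZNF ends in the sgHNRNPC table alone it was 33.7% (29 of 86, 24.6 to 44.2), in the MDA-LM2 table alone 28.1% (16 of 57, 18.1 to 40.8) and in both tables a share of 26.0% (52 of 200, 20.4 to 32.5). The 3 intervals overlap. A run of U is a description of the sequence and not a binding site.

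The poly(A) signal was present at 43.9% of ZNF ends in the MDA-LM2 table alone (25 of 57, 31.8 to 56.7), 58.1% in the sgHNRNPC table alone (50 of 86, 47.6 to 68.0) and 54.5% in both (109 of 200, 47.6 to 61.3). The corresponding shares for other genes were 31.3%, 48.9% and 50.8%. Ends upstream of the canonical stop codon made up 36.8%, 20.9% and 21.5% of the same 3 sets of ZNF ends, and 50.4%, 23.8% and 26.6% for other genes. In both groups of genes the ends of the MDA-LM2 table alone had the highest share upstream of the stop codon and the lowest share with the signal of the 3 sets. The ZNF intervals overlap for both measures, with 25.5 to 49.8, 13.7 to 30.7 and 16.4 to 27.7 for the share upstream of the stop codon.

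Both sites were placed ends in 133 listed pairs of 92 ZNF genes, and in all of them the site called proximal lay upstream of the one called distal in GRCh38. Both ends lay in 1 terminal exon in 92 of the 133 pairs (69.2%, interval 60.9 to 76.4), beside 35.0% of 6432 pairs of other genes. The share was 81.0% (47 of 58) on chromosome 19 and 45 of 75 elsewhere. It was 87.5% (14 of 16) for zinc finger genes with other symbol roots and 52.2% (35 of 67) for solute carrier genes. The median distance between the ends was 2986 nt for ZNF pairs and 6827 nt for other pairs. Many C2H2 proteins have their whole finger array in the last coding exon, so an end inside a long terminal exon can fall before the stop codon as well as after it.

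In listed pairs the signal stood mostly at the distal end, as in the ZNF330 and ZNF598 sequences above. It was present at 27 proximal ends (20.3%) and 92 distal ends (69.2%) of the 133 pairs, beside 11.3% and 59.7% for other genes. Transcripts tagged as unfinished made up 50 of the proximal ends (37.6%) and 3 of the distal ends (2.26%), beside 28.6% and 4.80%. An end counts once for each pair it enters, so these shares weigh genes with many ends more.

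**Figure D4:**
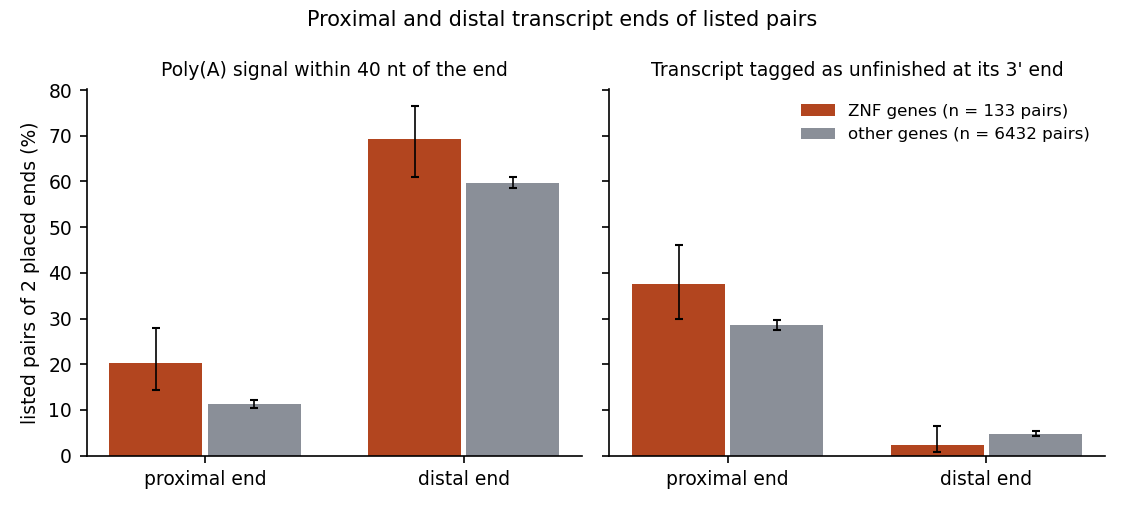
Share of the listed pairs of 2 placed transcript ends (y axis, percent) whose proximal or distal end (x axis) has AATAAA or ATTAAA within 40 nt (left) or belongs to a transcript tagged as unfinished at its 3′ end (right), for ZNF genes and other genes. Bars are shares and error bars are 95% Wilson intervals over pairs. In ZNF genes the signal stands at 20.3% of proximal and 69.2% of distal ends, and the tag at 37.6% and 2.26%.

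The widest pairs of placed ends joined distant last exons. The 5 widest were 1 pair of ZNF236, which spanned 89245 nt, and 4 pairs of ZNF638, from 60901 to 85516 nt. The next genes by their own widest pair were ZNF143 with 49002 nt, ZNF106 with 38844 nt and ZNF251 with 32772 nt. In the widest pair of each of these genes, the proximal end belonged to a transcript tagged as unfinished in ZNF638, ZNF143 and ZNF106, and to a transcript with a retained intron in ZNF236 and ZNF251. In ZNF638 the proximal end nonetheless had AATAAA, 9 nt from its end.

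In 22 ZNF genes a pair of ends followed the same stop codon, so the ends bound a shorter and a longer 3′ UTR. The median 3′ UTR was 294 nt at the proximal end and 2654 nt at the distal end, with a median extension of 2191 nt. In 662 other genes with such ends these medians were 386, 2576 and 1848 nt.

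ZNF562 had the longest extension of these, from 236 to 11142 nt, and ZNF778 went from 152 to 8509 nt. ZNF382 went from 720 to 6564 nt, ZNF546 from 764 to 5257 nt and ZNF84 from 674 to 4366 nt, with AATAAA at both ends in each. In ZNF10, which holds a KRAB box widely used to silence genes in engineered repressors, the proximal 3′ UTR had 23 nt and the distal one 2497 nt, and both ends had AATAAA. In ZNF91 the transcript with the proximal end stopped at the stop codon itself, with 0 nt of 3′ UTR and no signal, and the distal end followed after 1707 nt with AATAAA. The genes of this paragraph other than those chosen by the fixed rules, which are ZNF10, ZNF84 and ZNF778, were picked after their lengths were seen.

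A read of a 3′ end can be assigned to a single gene with certainty only where its whole sequence is not found in another. Each placed end was therefore searched, over its last 300 nt, for 31-mers that also occur on the sense strand of transcripts of other genes. No such 31-mer was found at 193 of 343 ZNF ends (56.3%, interval 51.0 to 61.4), beside 78.9% of other ends. The share without one was 38.9% (65 of 167) for ZNF genes on chromosome 19 and 72.7% (128 of 176) for those elsewhere, and 85.7% (42 of 49) for zinc finger genes with other symbol roots. On average 11.8% of the 31-mers of a ZNF end occurred in other genes, beside 7.97%. More than 50% did so at 28 ZNF ends in 26 genes (8.16%), beside 6.70% of other ends.

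**Figure D5:**
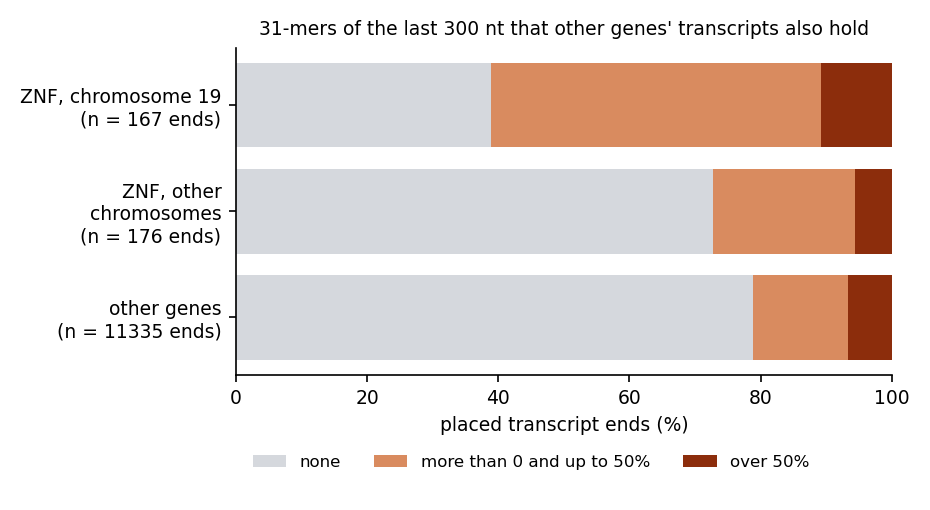
Share of placed transcript ends (x axis, percent) by how many of the 31-mers of their last 300 nt also occur in transcripts of other genes (color: none, up to 50%, over 50%), for ZNF genes on chromosome 19, ZNF genes elsewhere and other genes (y axis). Ends with none make up 38.9%, 72.7% and 78.9%, from top to bottom.

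Several cases, which overlap in part, stood out among the 28 ends. In 12 the gene that held the largest share of the 31-mers overlapped the ZNF gene on the same strand, as in read-through transcripts. ZNF177 shared 100% with the read-through gene ZNF559-ZNF177, ZNF321P 100% with ZNF816-ZNF321P, and ZNF324 100% with ZNF446. ZNF252P shared 100% with an overlapping gene of the same symbol, and one end of ZNF286A shared 100% with ZNF286A-TBC1D26. In 7 ends the main partner was a ZNF gene that did not overlap it. The other ZNF286A end shared 88.9% with ZNF286B, ZNF585B shared 64.1% with ZNF585A, its neighbor on the same strand, to which another overlapping gene joins it, and ZNF611 and ZNF808 shared 46.3% and 47.8% with each other. Reads made of these shared 31-mers alone cannot be told apart between the genes involved.

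Shared letters of another kind came from sequence found in more than 1000 other genes, at 8 of the 28 ends. These were ends of ZNF101, ZNF221, ZNF430, ZNF461, ZNF655, ZNF669, ZNF714 and ZNF766, and the genes they shared with ranged from 1102 for ZNF766 to 2850 for ZNF655. Dispersed repeats such as Alu elements are found in the transcripts of many genes, and repeats were not annotated here.

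A run of at least 6 A followed the end in the genome, within 20 nt downstream, at 26 of 343 ZNF ends (7.58%, interval 5.23 to 10.9), beside 4.05% of other ends. An oligo(dT) primer can anneal to A letters of the RNA itself, and 3′-end libraries are primed with oligo(dT). Whether any of these ends was read in that way was not tested.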

How the data were processed

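The authors prepared 3′-end libraries (QuantSeq; REV kit in the methods, FWD and REV in the labels), used Salmon 0.14.1 to assign reads to the distinct transcript ends of GENCODE release 33, normalized the abundances and ran APAlog, a multinomial logistic regression, on all pairs of sites. That description covers transcript ends, and how the sites named by a genomic position were defined is not stated. UMI-tools and hg38 are named in the submitters' processing notes. The deposited tables hold site names and the authors' log change, p-value and q-value of each pair. The last 3 are results of the authors and were not used. No columns of single samples were present, and 0 columns were left unmapped.

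The members and gene lists were chosen with earlier results of these data known. Site names were counted, and transcript ends were placed by identifier and version on GENCODE release 44 (GRCh38). A pair shares a terminal exon where their last exons overlap. Sequences come from that genome. Named genes are the listed members of 4 lists, the 10 with most sites, the 5 with most sites in 1 table alone, the 5 widest pairs and the 5 highest shared 31-mer shares (ties by symbol). Others, the widest pair of 3 further genes among them, and the measures of unfinished ends, stop codons and A runs, were chosen after values were seen. So were the shares of ends by table and the shares of each table's genes and sites that the other lists. The shares with 2 sites in genes of a single table, the members counted against the annotation and the main partners of shared ends were also added then. Scripts (Python 3.11.15 with scipy 1.17.1, numba 0.67.0, pandas 2.3.3, numpy 2.4.6 and matplotlib 3.10.9) were tested on simulated sequences. Alternatives changed windows, motifs and the sites counted.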

Additional observations from a re-analysis of the deposited data

How the results depend on the processing

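No paired analysis was possible because no value of any single sample was among the data, and for the same reason no replicate was left out in turn and no replicate block was fitted. Asking for at least 3 sites left 83 ZNF genes of the MDA-LM2 table and 112 of the other, fewer by construction. Counting transcript ends alone gave a mean of 1.49 and 1.47 sites per gene, and genomic positions alone 1.22 and 1.41. The share of sites in both tables was 76.3% within genes of both tables. The poly(A) signal was at 41.4% of ends for AATAAA alone and at 59.4% without unfinished transcripts. A run of at least 6 U gave 10.2%, and the last 300 nt 53.9%. A shared stop codon in place of a shared terminal exon gave 18.0% of pairs. More than 50% shared sequence was found at 4.08% of ends with 50-mers and at 4.66% when all genes joined to the ZNF gene by a chain of overlapping genes were left out, and at least 8 A downstream at 4.66%. Each of these asks a stricter, wider or narrower question by its own construction. The alternatives on unfinished transcripts, overlapping genes and 8 A, and counting 1 end per position (53.6% with the signal), were chosen after seeing the data. The other 8 settings run moved their value by less than its interval, or a count by less than 1.5 times. Of these, the 3 that merged positions within 25 nt, like counting 1 end per position, left their values as they were because there was nothing to merge, and say nothing about stability. Unknown depth limits every count: a site absent from a table may have been present and unread.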
